A study of Homo sapiens with 30 samples.

Results

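The nuclear-encoded genes of the respiratory chain and ATP synthase were examined across 15 groups of SUM190 cells, an established line of inflammatory breast cancer. Members were all symbols beginning with NDUFA, NDUFB, NDUFC, NDUFS, NDUFV, UQCR, COX4 to COX8 or ATP5, plus SDHA, SDHB, SDHC and SDHD, with UQCRC2 and NDUFAB1 not counted. Of 20114 symbols in the table, 95 matched, and 85 of these had at least 1 CPM (counts scaled to library size) in 2 or more libraries. The 85 comprised 36 subunits of complex I, 4 of complex II, 7 of complex III, 11 of complex IV and 15 of ATP synthase. The remaining 12 carry such names without being subunits. They were the complex I assembly factors NDUFAF1 to NDUFAF7, the complex IV paralogs NDUFA4L2 and COX7A2L, ATP5S, ATP5SL and the pseudogene COX6A1P2.

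Polyadenylated RNA was sequenced from doxorubicin-resistant (DR), paclitaxel-resistant (PR) and parental (Par) cells, with 2 libraries in each of 15 groups. Reads on the listed genes, recovered by undoing the scaling of the values, came to 18443749 to 32669995 per library. Drugs were added 24 h after seeding, and cells were kept in them for 72 h. DR cells received vehicle (DMSO), 350 nM doxorubicin or 1 µM doxorubicin. PR cells received DMSO, paclitaxel at 6.5 or 10 nM, 15 µM ruxolitinib, or 6.5 nM paclitaxel together with ruxolitinib. Parental cells received DMSO, 65 nM or 1 µM doxorubicin, 2.5 or 10 nM paclitaxel, 15 µM ruxolitinib, or 2.5 nM paclitaxel together with ruxolitinib. In the labels ruxolitinib is given as 15 nM in the combinations, so the single agent and the combination may differ in dose, and they do not say whether a resistant line is a clone or a pool. Doxorubicin is an anthracycline that poisons topoisomerase II, paclitaxel stabilises microtubules, and ruxolitinib inhibits the kinases JAK1 and JAK2. The libraries of a group are not said to come from separate cultures, so p-values reflect the spread within these pairs alone, possibly technical.

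Complexes I to IV pass electrons from NADH and succinate to oxygen, all but complex II pump protons across the inner mitochondrial membrane, and ATP synthase uses the returning protons to make ATP. Most subunits are encoded in the nucleus, a small set in mitochondrial DNA, and the complexes need both. The nuclear genes are known to share a set of regulators, among them NRF1, the ETS factor GABP, YY1 and the PGC-1 coactivators. The table gives the share of a library's reads that a gene takes, so fewer cells of a type and less RNA per cell cannot be told apart.

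All 8 luminal epithelial markers were present in every library, with a summed level of 5397 to 10069 CPM. Of 13 markers of other cell types in the table, 5 reached 1 CPM, and the 13 together summed to 17.9 to 46.8 CPM. In parental cells at 1 µM doxorubicin the sum of these 13 was 39.3 and 33.9 CPM, against 27.0 and 30.1 CPM in parental DMSO. The sum is given below beside the other comparisons in which it moved, and its part in the results was not tested. A call below means a limma adjusted p under 0.05 (Benjamini-Hochberg over 12743 genes), and a fold change is a difference of mean log2(CPM + 1) with its standard error (SE), given in parentheses after the CPM values, which understates the change of low genes. Beside the count of members for a comparison stands the share of all tested genes called in it. Counts under other settings or without a library stand without that share, so changes in them need not be particular to the members. Members named for a large change between groups were required not to overlap, so their lack of overlap adds no support.

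Levels differed widely between members. Per kb of transcript, the highest mean levels over all libraries were 427 CPM/kb for COX4I1, the ubiquitous isoform of complex IV subunit IV, 345 CPM/kb for ATP5B, the catalytic beta subunit of ATP synthase, and 327 CPM/kb for COX6C. The lowest were 1.00 CPM/kb for ATP5S, 2.01 CPM/kb for the assembly factor NDUFAF5 and 3.46 CPM/kb for the complex I subunit NDUFA11. Such levels depend on the transcript length used, which was 10212 bases for ATP5S. Median levels per kb were 85.4 CPM/kb for complex IV, 78.9 CPM/kb for ATP synthase, 66.9 CPM/kb for complex III, 52.6 CPM/kb for complex II and 37.9 CPM/kb for complex I. Assembly factors had a median of 5.45 CPM/kb. Members had short transcripts, with a median of 963 bases, against 3048 bases for all tested genes.

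Tissue isoforms were expressed one-sidedly. COX4I2, the hypoxia and lung isoform of COX4, was listed at 0 in every library, and the muscle isoforms COX6A2 and COX7A1, the testis isoforms COX6B2 and COX7B2, and COX8C stayed below the filter, with a highest value among the 10 genes left out of 0.943 CPM in COX8C. The copies ATP5EP2 and ATP5L2 and the readthrough genes ATP5J2-PTCD1 and NDUFC2-KCTD14 made up the rest of the 10. Of the 3 genes that encode the same mature c subunit of ATP synthase, ATP5G3 averaged 130.2 CPM/kb, ATP5G2 54.5 CPM/kb and ATP5G1 36.5 CPM/kb. Reads of COX6A1 and COX6A1P2, of SDHA and its pseudogene copies, and of NDUFC2 and ATP5J2 and their readthrough genes could have been split or shared in counting, so their values are uncertain.

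Variation over the 15 groups was uneven. The coefficient of variation of the group means was 6.23% for SDHB, the iron-sulfur subunit of complex II, and 6.55% for ATP5B. It was largest for NDUFB1, a small accessory subunit of complex I, at 53.1%, and for NDUFA4L2, a hypoxia-induced paralog of NDUFA4, at 41.8%. Parental cells in 1 µM doxorubicin held the highest group mean of 45 of the 85 members and the lowest of 18. Of all tested genes, 75.8% were called between this group and parental DMSO, so extremes there are not particular to the members.

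**Figure D1:**
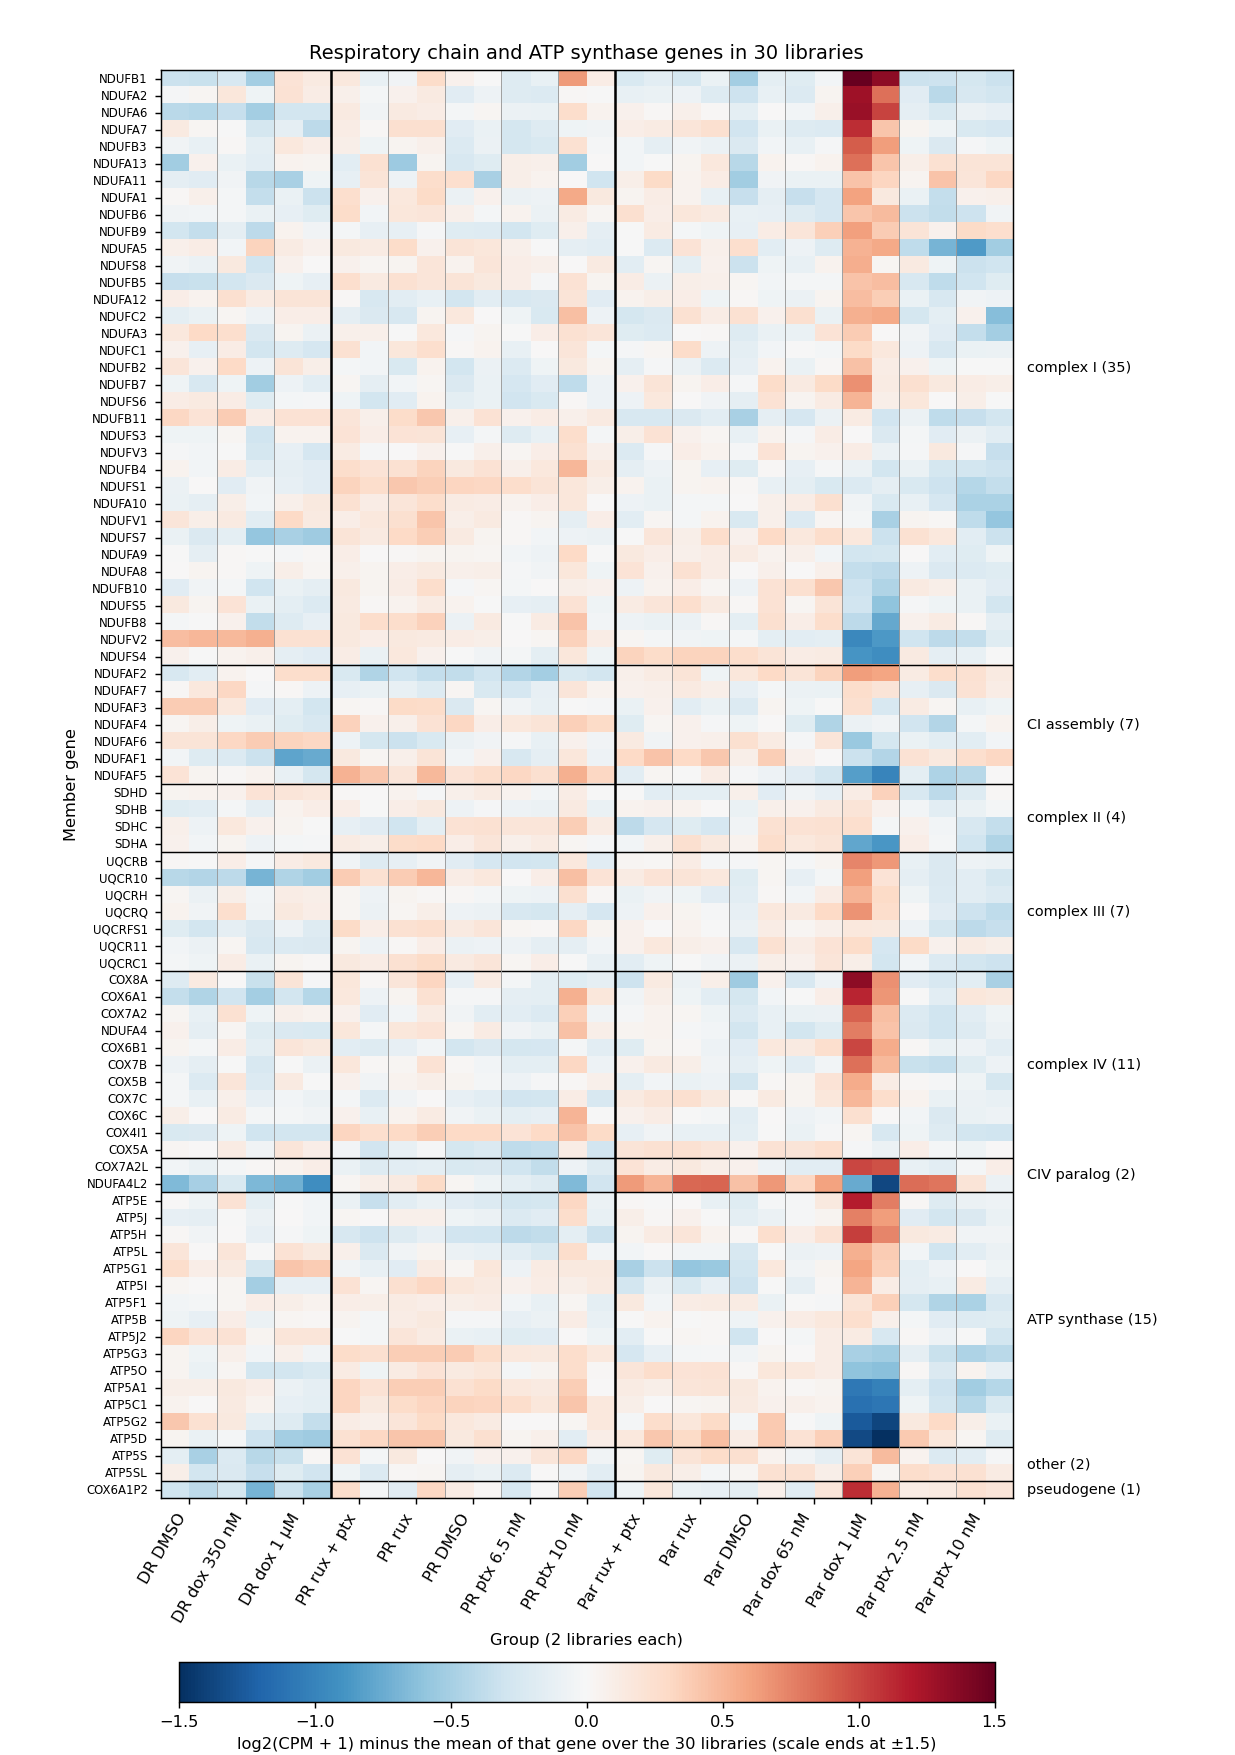
Heat map of 84 of the 85 members (rows, by complex) over the 30 libraries (columns, 2 for each of 15 groups). Colour gives log2(CPM + 1) minus the member's mean over the 30 libraries, on a scale that ends at 1.5 in each direction. The columns for parental cells at 1 µM doxorubicin, where 45 of the 85 members are highest and 18 lowest, hold most of the strong colours. Of all tested genes, 75.8% were called between that group and parental DMSO.

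At 1 µM doxorubicin, parental cells had higher levels of 42 members and lower levels of 20 than in DMSO, which is 49.4% and 23.5% of the 85. Over all 12743 tested genes, 34.3% were called higher and 41.5% lower. The median member had a log2 fold change of 0.27, against -0.07 over all tested genes. The largest rises were in NDUFB1, NDUFA2, COX8A and NDUFA6, all small accessory subunits, and the largest falls included those of ATP5D, NDUFA4L2 and ATP5G2.

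Among the complexes, complex IV had the highest median change, with 8 of its 11 subunits called higher, 0 called lower and a median log2 fold change of 0.76. COX8A, the ubiquitous isoform of subunit VIII, had 37.4 and 23.4 CPM at 1 µM doxorubicin, against 9.43 and 14.8 CPM in DMSO. The groups did not overlap, although the replicates of each lay apart, and the log2 fold change was 1.25 ± 0.20, adjusted p = 3.6e-06. COX6A1 had 53.5 and 38.1 CPM with drug, against 19.6 and 23.1 CPM in DMSO (1.05 ± 0.13, adjusted p = 2.1e-07). NDUFA4, once assigned to complex I and now counted in complex IV, changed by 0.79 ± 0.11, adjusted p = 8.4e-07, and COX7A2, COX6B1, COX7B and COX5B by 0.82, 0.79, 0.76 and 0.46. The most abundant subunit was not among them: COX4I1 had 309 and 255 CPM, against 273 and 300.2 CPM in DMSO, and overlapped (-0.03 ± 0.09, adjusted p = 0.78). COX5A also missed the threshold (-0.19 ± 0.10, adjusted p = 0.090). COX7A2L, a paralog that joins complexes III and IV into supercomplexes, had 211 and 204 CPM, against 110.0 and 99.6 CPM in DMSO (0.98 ± 0.07, adjusted p = 1.1e-11).

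In complex III, 4 of 7 subunits were called higher and 0 lower, with a median of 0.45. The called subunits were UQCRB, UQCR10, UQCRH and UQCRQ, all small supernumerary subunits, named here after their values were seen. The core protein UQCRC1 and the Rieske iron-sulfur protein UQCRFS1, which carries the electron to cytochrome c1, did not pass (-0.09 and 0.14). UQCR11, another small supernumerary subunit, was not called either.

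Complex I split, with 18 of 36 subunits called higher and 9 lower. Of its 29 accessory subunits 17 were higher and 7 lower (median 0.34), and of its 7 core subunits 1 was higher and 2 were lower (median -0.19). NDUFB1, in the membrane arm, had the largest fold change of all members, with 125 and 89.8 CPM at 1 µM doxorubicin, against 24.2 and 31.6 CPM in DMSO. The lower treated library stood well above the higher DMSO library, and the log2 fold change was 1.90 ± 0.16, adjusted p = 1.2e-10. NDUFA2, in the NADH-oxidising part, had 87.7 and 64.1 CPM, against 28.7 and 33.1 CPM in DMSO (1.26 ± 0.12, adjusted p = 1.0e-09). NDUFA6, a LYR-motif subunit, had 211 and 173 CPM, against 76.8 and 86.03 CPM (1.22 ± 0.09, adjusted p = 2.5e-11). Neither gene's groups overlapped.

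Among the core subunits, NDUFV2, which holds an iron-sulfur cluster beside the NADH site, had 46.8 and 50.4 CPM with drug, against 90.7 and 83.8 CPM in DMSO (-0.83 ± 0.08, adjusted p = 8.4e-10). Each treated library lay below each DMSO library. NDUFS8 was the core subunit that rose (0.48), and NDUFV1 and NDUFS1 had fold changes of -0.19 and -0.13 without a call. The accessory subunit NDUFS4, whose loss causes Leigh syndrome, had 28.6 and 27.7 CPM, against 64.4 and 61.5 CPM in DMSO (-1.14 ± 0.09, adjusted p = 6.6e-11). Of the 7 assembly factors, 2 were higher (NDUFAF2 and NDUFAF7) and 3 lower (NDUFAF1, NDUFAF5 and NDUFAF6).

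In complex II, SDHA, the flavoprotein that oxidises succinate, had 66.4 and 62.5 CPM with drug, against 119 and 138 CPM in DMSO (-0.98 ± 0.08, adjusted p = 9.7e-11). The groups were far apart. SDHD, a membrane anchor, was called higher (0.28 ± 0.09, adjusted p = 0.010), and SDHB and SDHC did not pass (0.14 and 0.03).

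ATP synthase was divided between its F1 part and the rest. Of the 5 F1 subunits 3 were lower and 1 higher, with a median of -1.14, and of the 10 stalk and membrane subunits 6 were higher and 3 lower, with a median of 0.37. ATP5D, the delta subunit of the central stalk, had 11.6 and 8.41 CPM at 1 µM doxorubicin, against 33.6 and 41.1 CPM in DMSO, and fell more than any other member (-1.81 ± 0.13, adjusted p = 1.8e-11). ATP5A1, the alpha subunit, had 184 and 193 CPM, against 429.6 and 405 CPM (-1.14 ± 0.08, adjusted p = 1.8e-11). ATP5C1, the rotating gamma shaft, had 52.96 and 54.6 CPM, against 128 and 122 CPM (-1.200 ± 0.09, adjusted p = 1.4e-11). In all 3 genes the treated libraries lay below the DMSO libraries without overlap. Their partner in the catalytic ring, ATP5B, had 750.1 and 664 CPM, against 606 and 661 CPM in DMSO, and missed the threshold (0.16 ± 0.08, adjusted p = 0.079). ATP5E, the epsilon subunit, named after its values were seen, had 165 and 124 CPM, against 63.5 and 71.3 CPM (1.07 ± 0.13, adjusted p = 9.1e-08). The F1 subunits thus did not share a direction at the RNA level.

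The c-subunit genes also parted. ATP5G2 had 18.7 and 17.3 CPM with drug, against 45.6 and 61.2 CPM in DMSO (-1.502 ± 0.12, adjusted p = 7.7e-11), and ATP5G3 was lower by less (-0.49 ± 0.08, adjusted p = 5.1e-06). ATP5G1 had 33.2 and 28.1 CPM, against 17.7 and 24.4 CPM in DMSO, and was higher in both treated libraries (0.53 ± 0.13, adjusted p = 0.00095). NDUFA4L2 had 7.37 and 4.52 CPM, against 18.2 and 21.2 CPM in DMSO, the opposite of its paralog NDUFA4 (-1.60 ± 0.17, adjusted p = 6.2e-09).

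Summed over members, the level was 8465 and 7372 CPM at 1 µM doxorubicin, against 6682 and 7177 CPM in DMSO. The sum of complex IV was 1863 and 1499 CPM, against 1205 and 1344 CPM in DMSO, and that of complex III was 1184 and 1012 CPM, against 760.4 and 857 CPM in DMSO. The groups did not overlap in any of these sums, and replicate 1 of the treated group was the higher of the pair each time. They did overlap for complex I, with 2361 and 2044 CPM, against 1922 and 2046 CPM in DMSO. ATP synthase overlapped too, with 2266 and 2068 CPM, against 2093 and 2184 CPM. Complex II was lower in both treated libraries, with 389.7 and 369.3 CPM, against 395.3 and 432.6 CPM.

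**Figure D2:**
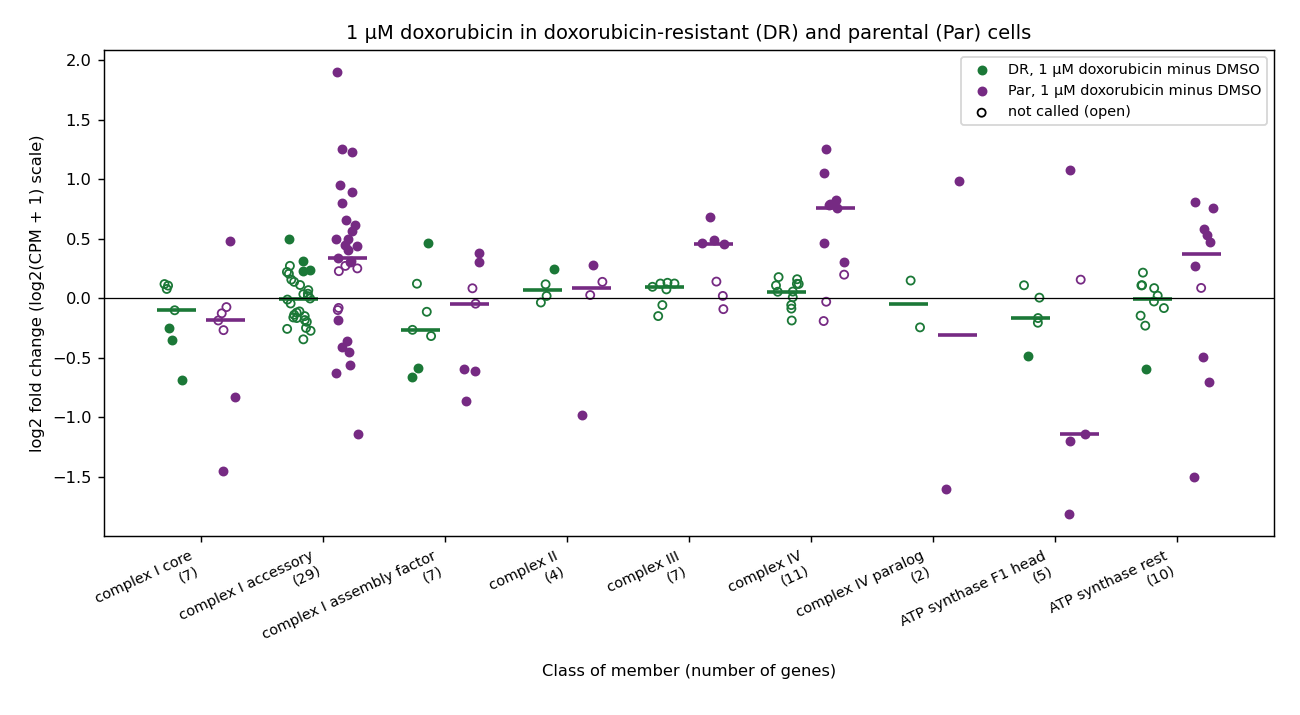
Log2 fold change of the members at 1 µM doxorubicin against DMSO, by complex and subclass (ATP5S, ATP5SL and COX6A1P2 not drawn; open points not called), in DR cells (left of each pair) and in parental cells (right), with the median as a bar. In parental cells complex IV has a median of 0.76 and the F1 part of ATP synthase -1.14, and in DR cells the class medians lie between -0.26 and 0.10.

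Across the 85 members, the fold change at 1 µM doxorubicin in parental cells had a Spearman correlation of -0.30 with transcript length, a description only, since members are not replicates. Members called higher had a median transcript of 797.5 bases, those called lower 1005 bases and those not called 1388 bases. Among all tested genes the medians were 2769 bases for genes called higher and 3366 bases for genes called lower. With values corrected for transcript GC content and length, 32 members were called higher and 26 lower at 1 µM in parental cells, and the median was 0.07. Without replicate 1 of the treated group 32 were higher and 23 lower, with a median of 0.14.

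Promoter sequence was set beside this response, since the members are known to share regulators. The windows ran from 250 bases before to 50 after the first RefSeq start of each gene (GRCh38.p14), and 68 of the 85 members had an entry. They were searched on both strands for the NRF1 core GCATGCGC, the ETS core CCGGAAG that GABP binds, the YY1 core ATGGCG and the hypoxia element core ACGTG. The NRF1 core was in 22.1% of member promoters and 3.27% of 27305 promoters, the ETS core in 29.4% and 10.7%, the YY1 core in 35.3% and 11.01%, and the hypoxia core in 25% and 21.6%. Of the members that rose at 1 µM doxorubicin, 36 had an entry, and 13 of these held the ETS core, 6 the NRF1 core, 10 the YY1 core and 8 the hypoxia core. Of the 14 fallers with an entry, 0 held the ETS core, 4 the NRF1 core, 5 the YY1 core and 4 the hypoxia core. The 27305 promoters include genes that were not tested for expression. Shares of these cores among all tested genes called higher or lower are not given, so the split is not shown to be particular to members. A link between the cores and the response was not tested. The YY1 core begins with ATG and the windows reach 50 bases past the start, so some matches could lie at a coding start. A match is a stretch of letters, not a shown binding site.

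The promoters below are those of the pair of called risers and the pair of called fallers with the largest fold changes that hold an NRF1, ETS or YY1 core. They are written 5′ to 3′ on the gene's strand, with matched NRF1, ETS and YY1 cores in capitals. COX8A, at chr11:63974370-63974669 on the plus strand, has an ETS core on the opposite strand 18 bases before the start. NDUFA6, at chr22:42090723-42091022 on the minus strand, has an NRF1 core 166 bases before and a YY1 core 28 bases after it. ATP5G2 (current symbol ATP5MC2), at chr12:53676034-53676333 on the minus strand, has an NRF1 core 40 bases before the first of its 3 listed starts, and a hypoxia core, left in lower case, on the opposite strand 241 bases before it. ATP5C1 (ATP5F1C), at chr10:7787927-7788226 on the plus strand, has overlapping NRF1 cores on both strands 20 and 22 bases before the start and a YY1 core 245 bases before it.
COX8A: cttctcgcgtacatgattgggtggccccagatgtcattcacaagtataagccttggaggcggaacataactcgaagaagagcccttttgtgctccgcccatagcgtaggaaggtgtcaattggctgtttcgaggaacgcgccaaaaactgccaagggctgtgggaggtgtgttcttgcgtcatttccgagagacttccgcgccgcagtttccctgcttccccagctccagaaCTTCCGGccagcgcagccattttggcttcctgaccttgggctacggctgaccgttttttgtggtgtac
NDUFA6: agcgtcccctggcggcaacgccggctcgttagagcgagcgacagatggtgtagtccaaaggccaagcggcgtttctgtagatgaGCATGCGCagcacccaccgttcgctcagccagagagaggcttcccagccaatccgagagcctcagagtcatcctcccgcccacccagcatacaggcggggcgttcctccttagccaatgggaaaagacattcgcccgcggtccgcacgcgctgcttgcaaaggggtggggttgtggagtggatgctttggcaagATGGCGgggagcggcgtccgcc
ATP5G2: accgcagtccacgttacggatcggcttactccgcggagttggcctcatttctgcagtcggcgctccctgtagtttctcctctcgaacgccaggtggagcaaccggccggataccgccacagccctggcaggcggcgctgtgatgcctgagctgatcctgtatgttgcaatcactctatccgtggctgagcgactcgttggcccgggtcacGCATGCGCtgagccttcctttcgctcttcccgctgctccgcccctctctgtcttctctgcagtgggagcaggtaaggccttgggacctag
ATP5C1: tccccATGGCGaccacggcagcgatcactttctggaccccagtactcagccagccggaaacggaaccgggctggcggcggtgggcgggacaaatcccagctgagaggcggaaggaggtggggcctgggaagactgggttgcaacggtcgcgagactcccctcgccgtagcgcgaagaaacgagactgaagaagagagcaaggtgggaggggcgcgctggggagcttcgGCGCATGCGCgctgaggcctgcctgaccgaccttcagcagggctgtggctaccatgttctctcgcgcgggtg

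In DR cells fewer members were called at the same dose. At 1 µM doxorubicin, 6 members were called higher and 7 lower than in DR DMSO, 7.06% and 8.24% of the 85, against 19.1% and 19.9% of all tested genes, and the median was 0.01. Complexes III and IV had 0 called subunits in either direction, and complex I had 4 higher and 3 lower of 36. The summed markers of other cell types were 44.9 and 37.2 CPM with drug, against 35.1 and 32.6 CPM in DR DMSO. ATP5G2 had 40.4 and 35.95 CPM with drug, against 61.5 and 54.6 CPM in DR DMSO (-0.59 ± 0.12, adjusted p = 0.00042), and ATP5D had 21.6 and 21.2 CPM, against 31.99 and 28.9 CPM (-0.49 ± 0.13, adjusted p = 0.0057). In these genes both treated libraries lay below both DMSO libraries.

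Of the 7 complex I assembly factors, 1 was higher and 2 were lower in DR cells at 1 µM. NDUFAF1, an early factor that stabilises membrane-arm intermediates, had 19.1 and 19.6 CPM with drug, against 32.8 and 29.5 CPM in DR DMSO (-0.66 ± 0.10, adjusted p = 1.3e-05). NDUFAF3 had 8.64 and 7.81 CPM, against 12.8 and 12.8 CPM (-0.59 ± 0.13, adjusted p = 0.0010). NDUFAF2, a late factor and paralog of NDUFA12, went the other way, with 32.6 and 32.7 CPM, against 22.6 and 24.1 CPM (0.47 ± 0.09, adjusted p = 0.00033). None of the 3 overlapped between groups.

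Members called higher in DR cells included NDUFB1, with 40.3 and 38.4 CPM at 1 µM doxorubicin, against 27.6 and 27.6 CPM in DR DMSO (0.50 ± 0.16, adjusted p = 0.014). NDUFB9, another membrane-arm subunit, had 111 and 103 CPM, against 88.5 and 83.2 CPM (0.32 ± 0.10, adjusted p = 0.017), and SDHB had 109 and 113 CPM, against 92.6 and 93.6 CPM (0.25 ± 0.08, adjusted p = 0.017). The groups did not overlap in these genes, and the changes were small. SDHA, ATP5A1, COX8A and COX4I1 had fold changes of -0.04, -0.20, 0.12 and -0.06 and were not called. In place of 13 calls there were 7 without replicate 1 of DR DMSO, 6 without its replicate 2, 8 without replicate 1 of the treated group and 27 (8 higher and 19 lower) with the GC and length correction. NDUFB1 lost its call in each of these 3 fits without a library (adjusted p 0.064, 0.066 and 0.083), NDUFB9 without replicate 2 of DR DMSO or replicate 1 of the treated group (0.12 and 0.14), and SDHB without either DR DMSO library or replicate 2 of the treated group (0.082, 0.065 and 0.11).

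**Figure D3:**
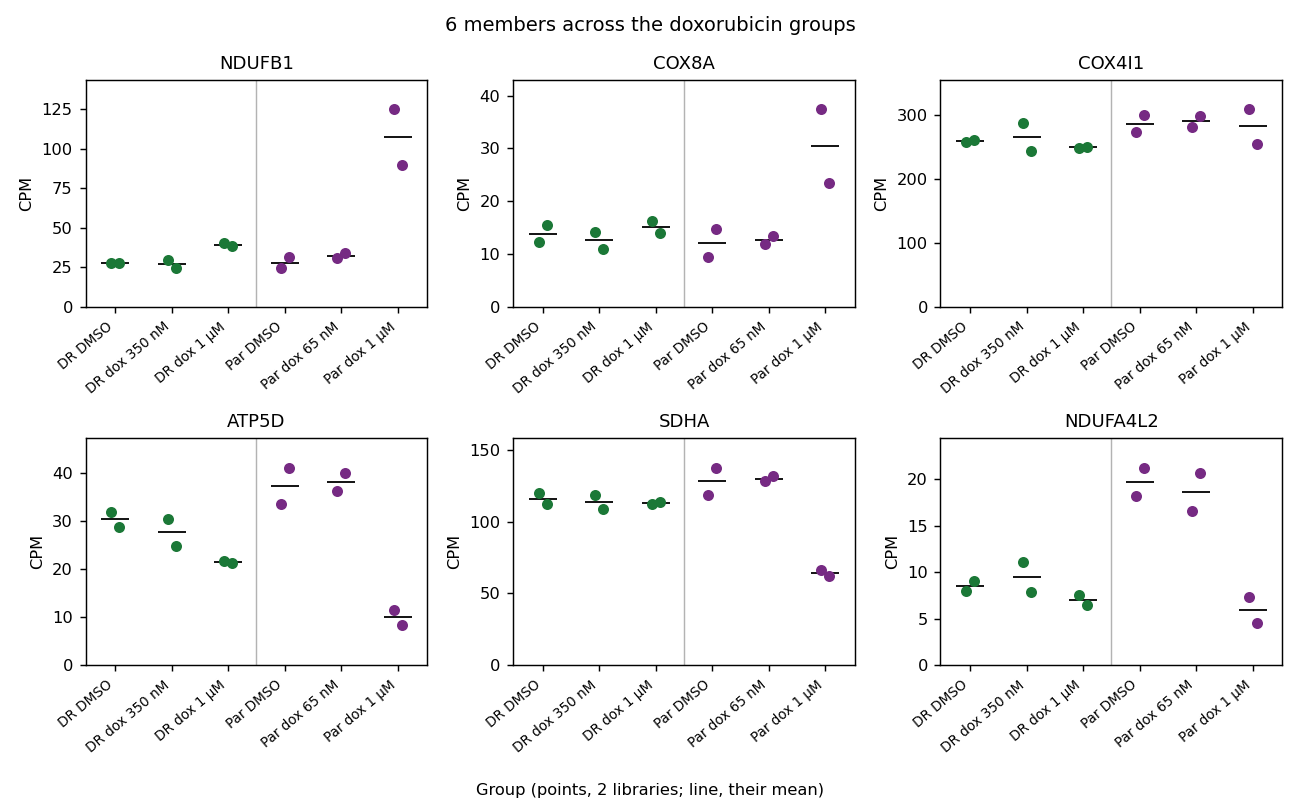
CPM of 6 members in each library, for DR groups and then parental groups, with DMSO at the low end of each dose series. NDUFB1 reaches 125 and 89.8 CPM in parental cells at 1 µM and 40.3 and 38.4 CPM in DR cells at that dose, and ATP5D lies at 21.6 and 21.2 CPM in DR cells and 11.6 and 8.41 CPM in parental cells at that dose.

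The difference between the 2 lines' responses to 1 µM doxorubicin was tested directly, as the DR fold change minus the parental one. It was called positive for 17 members and negative for 29, 20% and 34.1% of the 85, against 33.2% and 25.1% of all tested genes. The median difference was -0.21, against 0.08 over all genes. Calls were 24 positive and 24 negative with the GC and length correction. For NDUFB1 the response was 0.50 in DR and 1.90 in parental cells, a difference of -1.40 ± 0.22, adjusted p = 1.0e-05. NDUFA7, NDUFA2 and COX8A differed by -1.29, -1.10 and -1.13. In the other direction, the response of ATP5D was -0.49 in DR and -1.81 in parental cells (1.33 ± 0.19, adjusted p = 2.8e-06), and NDUFA4L2, ATP5C1 and NDUFS4 differed by 1.36, 1.03 and 0.95.

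Of the 42 members called higher in parental cells, 29 had a positive fold change in DR cells and 4 were called higher there (NDUFB1, NDUFB5, NDUFB9 and NDUFAF2). Their median fold change was 0.11 in DR and 0.57 in parental cells, and 28 had a called difference, each toward a smaller DR response. Of the 20 called lower in parental cells, 15 had a negative fold change in DR cells and 5 were called lower there, among them ATP5D, ATP5G2, NDUFV2 and NDUFAF1. NDUFA10 was called higher in DR cells and lower in parental cells (0.23 and -0.18). The fallers' median was -0.19 in DR and -0.77 in parental cells, and 17 had a called difference, each toward a smaller DR response. Members were picked here by their parental values, which favours a smaller value elsewhere.

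At the lower doses no member was called. At 65 nM doxorubicin in parental cells limma called 0 members (4 at an unadjusted p under 0.05), where 11.2% of all genes were called. At 350 nM in DR cells it called 0 (also 4 unadjusted), where 3.81% of all genes were called. NDUFB1 had 29.3 and 24.3 CPM at 350 nM in DR cells, against 27.6 and 27.6 CPM in DR DMSO, and 30.6 and 34.02 CPM at 65 nM in parental cells, against 24.2 and 31.6 CPM in parental DMSO. ATP5D had 30.5 and 24.8 CPM at 350 nM, against 31.99 and 28.9 CPM in DR DMSO, and 36.2 and 40.1 CPM at 65 nM, against 33.6 and 41.1 CPM in parental DMSO. Treated and DMSO libraries overlapped in both genes and both lines. The doses differ between lines, so no comparison of these is made. The test voom on reads recovered from the table also called 0 members at either dose, and limma with the GC and length correction called 1 higher and 2 lower at 65 nM and 0 higher and 4 lower at 350 nM. At 65 nM limma called 3 higher without replicate 2 of parental DMSO and 1 lower without replicate 1 of the 65 nM group.

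DR cells in DMSO had 5 members higher and 9 lower than parental cells in DMSO, 5.88% and 10.6% of members, against 12.3% and 15.2% of all genes. The markers of other cell types summed to 35.1 and 32.6 CPM in DR, against 27.0 and 30.1 CPM in parental DMSO. NDUFA4L2 had 7.96 and 9.04 CPM in DR, against 18.2 and 21.2 CPM in parental cells (-1.12 ± 0.17, adjusted p = 1.3e-05). NDUFV2 had 128 and 131 CPM in DR, against 90.7 and 83.8 CPM (0.57 ± 0.08, adjusted p = 3.9e-06), and NDUFB11, an X-linked membrane-arm subunit, had 46.05 and 42.5 CPM, against 26.1 and 33.4 CPM (0.57 ± 0.12, adjusted p = 0.0011). In each of these genes the lines did not overlap. NDUFAF3 and ATP5J2, the f subunit of ATP synthase, were higher (0.46 and 0.42), and NDUFAF2, UQCR10 and ATP5S lower (-0.43, -0.35 and -0.46). The count fell to 9 without replicate 1 of DR DMSO or replicate 2 of parental DMSO and to 7 without replicate 2 of DR DMSO, and was 10 higher and 16 lower with the GC and length correction. NDUFAF3 and ATP5J2 lost their calls without replicate 1 of DR DMSO (adjusted p 0.053 and 0.071) or of parental DMSO (0.11 and 0.12). NDUFAF3, UQCR10 and ATP5S lost theirs without replicate 2 of DR DMSO (0.056, 0.12 and 0.31), UQCR10 also without replicate 1 of DR DMSO or replicate 2 of parental DMSO (0.091 and 0.21), and ATP5S without replicate 1 of parental DMSO (0.145).

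PR cells in DMSO had 6 members higher and 7 lower than parental cells in DMSO, 7.06% and 8.24% of members, against 16.3% higher and 16.3% lower of all genes. Here the marker sum was 21.1 and 22.0 CPM in PR, against 27.0 and 30.1 CPM in parental DMSO. COX4I1 had 370.0 and 370.0 CPM in PR, against 273 and 300.2 CPM in parental cells (0.37 ± 0.09, adjusted p = 0.0021). NDUFS1, the largest core subunit of complex I, was higher by 0.36. NDUFAF2 had 20.7 and 21.7 CPM in PR, against 30.4 and 33.3 CPM (-0.57 ± 0.09, adjusted p = 3.9e-05). PR and parental libraries did not overlap in COX4I1 or NDUFAF2. NDUFB11 was higher (0.45), and NDUFA4L2, ATP5H and COX5A were lower (-0.56, -0.43 and -0.38). With the GC and length correction 22 members were higher and 11 lower. Without replicate 2 of PR DMSO, 4 members were higher and 3 lower, and NDUFB11 and NDUFA4L2 were not called. NDUFA4L2 and COX5A lost their calls without replicate 2 of parental DMSO (adjusted p 0.10 and 0.061), and NDUFB11 without its replicate 1 (0.12).

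Set against each other in DMSO, DR cells had 6 members higher and 12 lower than PR cells, 7.06% and 14.1% of members, against 15.6% and 18.4% of all genes, with marker sums of 35.1 and 32.6 CPM in DR and 21.1 and 22.0 CPM in PR. COX4I1 had 258 and 260.3 CPM in DR, against 370.0 and 370.0 CPM in PR, without overlap (-0.51 ± 0.09, adjusted p = 6.2e-05). UQCR10, NDUFB5 and NDUFA4L2 were also lower in DR (-0.56, -0.51 and -0.56). NDUFAF3, NDUFV2, ATP5J2 and NDUFA12 were higher (0.47, 0.38, 0.37 and 0.30). With the GC and length correction the counts were 11 higher and 25 lower. Without replicate 1 of PR DMSO they were 1 higher and 8 lower, and NDUFA4L2, NDUFAF3, ATP5J2 and NDUFA12 were not called. Without replicate 1 of DR DMSO, NDUFA4L2, ATP5J2 and NDUFA12 lost their calls (adjusted p 0.098, 0.10 and 0.12), as did NDUFA12 without its replicate 2 (0.065) and ATP5J2 without replicate 2 of PR DMSO (0.058). These comparisons share the DMSO libraries of the lines.

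**Figure D4:**
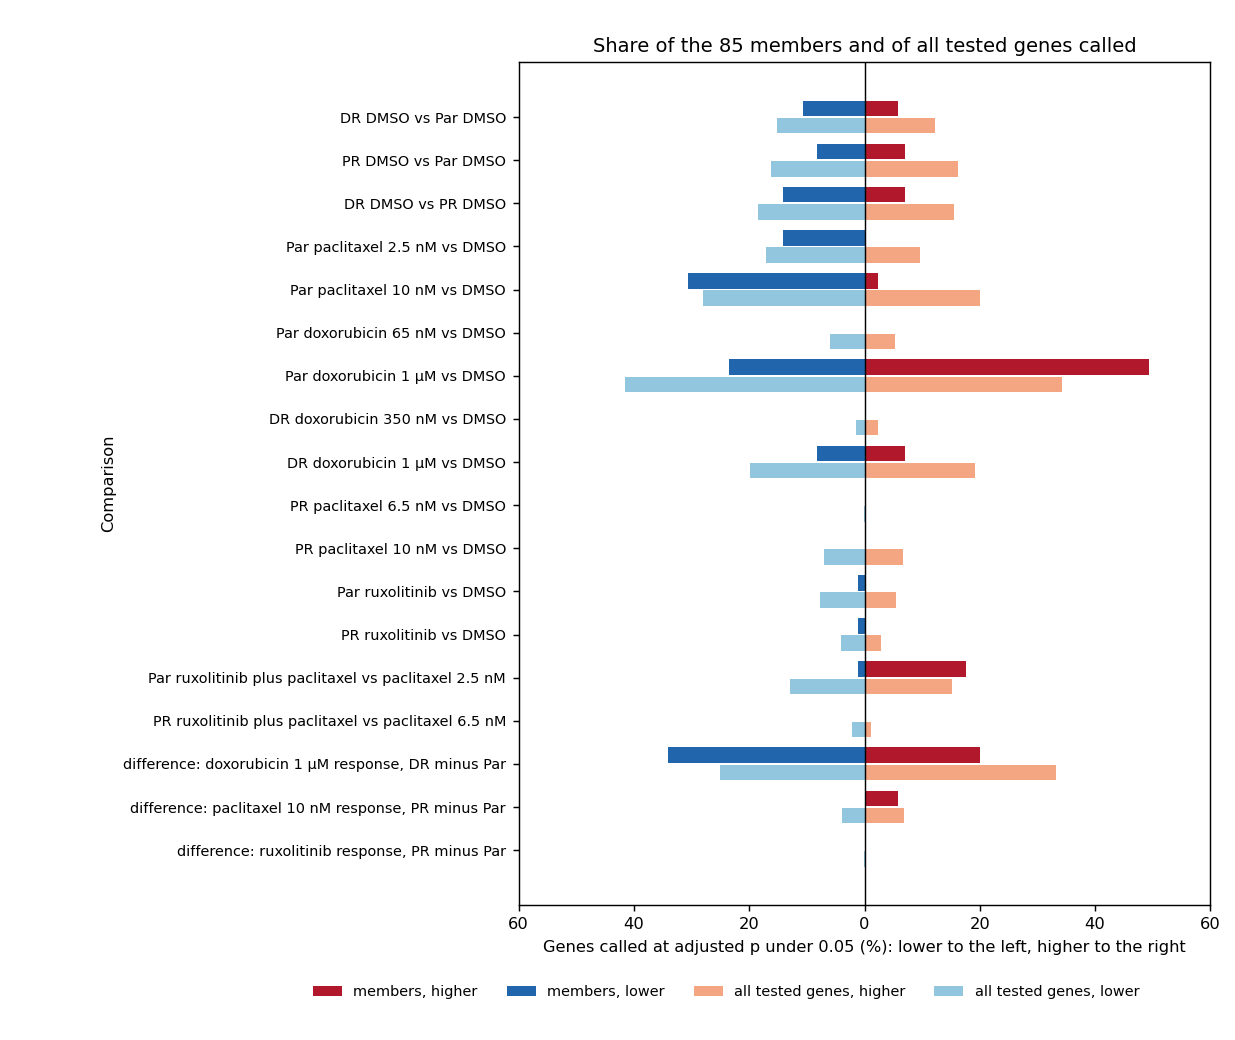
Percent of the 85 members, beside percent of all 12743 tested genes, called higher (to the right) and lower (to the left) in each comparison. Parental cells at 1 µM doxorubicin have 49.4% of members higher, the largest such share shown, and 23.5% lower, and parental cells at 10 nM paclitaxel have 30.6% lower.

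Under 10 nM paclitaxel in parental cells, 26 members were lower and 2 higher than in DMSO, 30.6% and 2.35% of members, against 28.1% and 20.1% of all genes, so the share lowered was close to that of all genes and the share raised was smaller. The median was -0.11, against -0.04 over all genes. The summed markers of other cell types were 46.8 and 42.4 CPM at 10 nM, against 27.0 and 30.1 CPM in DMSO. Complex I had 13 of 36 subunits lower, among them 4 of 7 core subunits, ATP synthase 5 of 15, complex III 3 of 7, complex II 2 of 4 and complex IV 1 of 11. ATP5A1 had 271 and 289.6 CPM at 10 nM, against 429.6 and 405 CPM in DMSO (-0.57 ± 0.08, adjusted p = 7.8e-06). SDHA had 93.05 and 84.02 CPM, against 119 and 138 CPM (-0.53 ± 0.08, adjusted p = 1.1e-05). NDUFA10, a membrane-arm accessory subunit, had 102 and 102 CPM, against 143 and 149.6 CPM (-0.52 ± 0.08, adjusted p = 1.2e-05). These 3 did not overlap between groups.

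NDUFA5, an accessory subunit of the matrix arm, had 49.4 and 62.6 CPM at 10 nM, against 107 and 80.9 CPM in DMSO (-0.73 ± 0.13, adjusted p = 8.3e-05), and its replicates differed widely in both groups. NDUFB9 was higher, with 131 and 128 CPM, against 98.2 and 116 CPM (0.28 ± 0.10, adjusted p = 0.028). The other gene called higher was NDUFA11, named after its values were seen. With only parental libraries in the fit, 1 member was higher and 15 were lower. Without replicate 2 of the 10 nM group 0 were higher and 18 lower, and NDUFB9 was not called. NDUFB9 also lost its call without replicate 1 of parental DMSO or of the 10 nM group (adjusted p 0.29 and 0.11).

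At 2.5 nM, 12 members were lower and 0 higher in parental cells, 14.1% and 0% of members, against 17.1% and 9.71% of all genes. The marker sum was 36.7 and 39.9 CPM at 2.5 nM, against 27.0 and 30.1 CPM in DMSO. NDUFA5 had 69.2 and 54.96 CPM at 2.5 nM, against 107 and 80.9 CPM in DMSO (-0.59 ± 0.13, adjusted p = 0.0036). ATP5F1, the b subunit of the peripheral stalk, had 205 and 180.2 CPM, against 269 and 229.7 CPM (-0.37 ± 0.09, adjusted p = 0.0070). ATP5A1 had 352 and 314 CPM, against 429.6 and 405 CPM (-0.33 ± 0.08, adjusted p = 0.0085). The treated libraries lay below the DMSO libraries in each of them, as in NDUFAF4 (-0.34). In place of 12 calls there were 2 with only parental libraries in the fit, 0 without replicate 1 of parental DMSO and 0 without replicate 2 of the 2.5 nM group. Across the 85 members, the fold change at 2.5 nM had a Spearman correlation of 0.70 with transcript GC content (0.65 across all tested genes), and the 2 parental DMSO libraries differed from each other along GC content too (0.69 across members). With the GC and length correction 18 members were lower and 0 higher at 2.5 nM, and NDUFAF4 was not called (adjusted p = 0.99).

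In PR cells limma called 0 members at 6.5 nM paclitaxel (1 at an unadjusted p under 0.05), where 0.0942% of all genes were called, and 0 at 10 nM (13 unadjusted), where 13.6% were called. ATP5A1 had 501 and 391 CPM at 10 nM, against 457 and 475 CPM in PR DMSO. SDHA had 117 and 113 CPM, against 123 and 130.3 CPM, and NDUFA10 had 161 and 143 CPM, against 155 and 154 CPM. ATP5A1 and NDUFA10 overlapped with DMSO, and SDHA lay below it in both libraries without a call. Replicate 1 of the 10 nM group stood above replicate 2 over the members, by a median log2 of 0.18. In place of 0 calls at 10 nM, 11 members were called higher and 1 lower without replicate 2, 2 higher and 12 lower with the GC and length correction, and 4 higher and 6 lower with only the lines compared in the fit. The marker sum was 25.8 and 27.7 CPM at 10 nM, against 21.1 and 22.0 CPM in PR DMSO.

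The difference between the lines at 10 nM paclitaxel was taken as PR fold change minus parental. It was positive for 72 members, with a median of 0.21, against 0.05 over all tested genes. It was called for 5, all positive, 5.88% of members, against 6.87% of all genes called positive and 3.88% called negative. ATP5A1 had a response of -0.07 in PR and -0.57 in parental cells, a difference of 0.50 ± 0.12, adjusted p = 0.0090. NDUFA10 differed by 0.49 ± 0.11, adjusted p = 0.0061, UQCRFS1 by 0.40 ± 0.13, adjusted p = 0.049, SDHA by 0.39 ± 0.11, adjusted p = 0.026 and ATP5C1 by 0.39 ± 0.12, adjusted p = 0.046. In place of 5 calls there were 1 without replicate 1 of the PR 10 nM group, 18 without its replicate 2, 2 without replicate 1 of PR DMSO, 3 without its replicate 2, 21 with the GC and length correction, and 3 each with median-of-ratios scaling and with only the lines compared. ATP5A1 lost its call without replicate 1 of the PR 10 nM group (adjusted p = 0.078). SDHA lost its call without that library, replicate 1 of PR DMSO, or replicate 2 of parental DMSO or of the parental 10 nM group (adjusted p 0.092 to 0.12), and UQCRFS1 in 6 of the fits without a library (0.073 to 0.28).

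**Figure D5:**
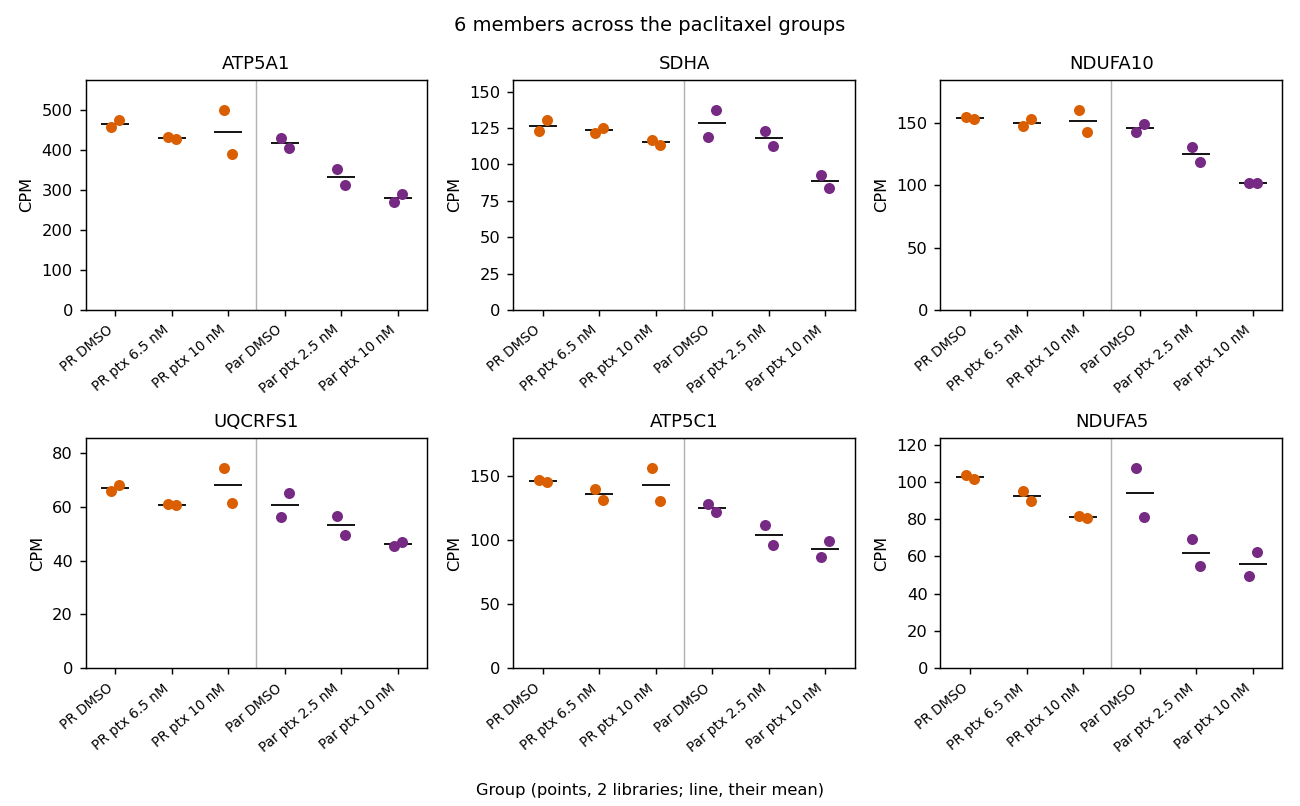
CPM of 6 members in each library under paclitaxel, for PR groups and then parental groups, with DMSO at the low end of each dose series. ATP5A1, SDHA and NDUFA10 lie below DMSO at 10 nM in both parental libraries, and in PR cells ATP5A1 has 501 and 391 CPM at 10 nM, on either side of its DMSO values.

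Under ruxolitinib alone 1 member was called in each line, lower in both, against 5.51% of all genes higher and 7.71% lower in parental cells and 2.86% higher and 4.06% lower in PR cells. Fold changes were positive in 57 of the 85 members in parental cells, with a median of 0.06, against -0.01 over all tested genes. In PR cells 72 were positive, with a median of 0.11, against 0.0005 over all tested genes. The shares of all genes with a positive sign are not given. The count of called members and its direction depended on the setting. With the GC and length correction 7 members were higher and 1 lower in parental cells and 8 were higher and 0 lower in PR cells, and with only the lines compared 7 were higher and 1 lower in PR cells. The marker sum was 22.1 and 22.5 CPM under ruxolitinib, against 27.0 and 30.1 CPM in DMSO, in parental cells, and 17.9 and 18.3 CPM, against 21.1 and 22.0 CPM, in PR cells. In PR cells the called member was SDHC, a membrane anchor of complex II, with 78.4 and 87.5 CPM under ruxolitinib, against 113 and 113 CPM in DMSO (-0.44 ± 0.10, adjusted p = 0.0078). In parental cells SDHC had 85.4 and 81.2 CPM under ruxolitinib, against 93.2 and 113 CPM in DMSO, without overlap but short of the threshold (-0.30 ± 0.10, adjusted p = 0.053). There ATP5G1 was called lower, with 14.2 and 14.4 CPM, against 17.7 and 24.4 CPM (-0.51 ± 0.13, adjusted p = 0.012). The difference of the ruxolitinib response, PR minus parental, was called for 0 members by limma (1 at an unadjusted p under 0.05), where 0.408% of all genes were called. SDHC lost its call without either PR DMSO library or replicate 1 of PR ruxolitinib (adjusted p 0.068, 0.071 and 0.14) and with the GC and length correction (0.070), and ATP5G1 without replicate 2 of parental DMSO or either ruxolitinib library (0.21, 0.08 and 0.069). With median-of-ratios scaling 1 member was called higher and 1 lower in parental cells.

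Ruxolitinib with 2.5 nM paclitaxel was set against 2.5 nM paclitaxel alone in parental cells. Members called higher numbered 15 and lower 1, 17.6% and 1.18% of members, against 15.1% and 12.9% of all genes. The summed markers of other cell types were 23.4 and 24.8 CPM in the combination, against 36.7 and 39.9 CPM in paclitaxel alone. NDUFB6, a membrane-arm subunit, had 32.5 and 29.2 CPM in the combination, against 21.7 and 20.9 CPM in paclitaxel alone (0.51 ± 0.10, adjusted p = 0.00068). COX7B had 109 and 115 CPM, against 82.8 and 81.1 CPM (0.45 ± 0.11, adjusted p = 0.0064), and ATP5F1 had 274 and 239.7 CPM, against 205 and 180.2 CPM (0.41 ± 0.09, adjusted p = 0.0027). The combination lay above paclitaxel alone in every library of these genes, and of NDUFA5 (0.44). The gene called lower was again SDHC, with 73.3 and 80.9 CPM, against 102 and 94.2 CPM (-0.34 ± 0.10, adjusted p = 0.017).

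These counts fell to 1 higher and 0 lower without replicate 2 of paclitaxel alone and to 2 higher and 0 lower without replicate 1 of the combination, and the fold change had a Spearman correlation of -0.62 with GC content across members (-0.61 across all genes). With only parental libraries in the fit 6 members were higher and 0 lower. With the GC and length correction 24 were higher and 1 lower, and COX7B was not called (adjusted p = 0.22). Without replicate 2 of paclitaxel alone COX7B, ATP5F1, NDUFA5 and SDHC lost their calls (0.061, 0.070, 0.26 and 0.054). Without replicate 1 of the combination ATP5F1, NDUFA5 and SDHC lost theirs (0.088, 0.21 and 0.20), and SDHC did without replicate 1 of paclitaxel alone (0.096).

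In PR cells with 6.5 nM paclitaxel, adding ruxolitinib called 0 members by limma (9 at an unadjusted p under 0.05), against 3.28% of all genes. Of the 85 fold changes 74 were positive, with a median of 0.11, against -0.002 over all tested genes. Set against PR DMSO, the same 6.5 nM libraries had negative fold changes in 74 of the 85 members. The median there was -0.08, against 0.003 over all tested genes. The shares of all genes with these signs are not given. Calls were 4 higher and 0 lower with the GC and length correction, and 3 higher and 1 lower with only the lines compared. Marker sums were 18.6 and 21.0 CPM in the combination, against 22.3 and 21.3 CPM in paclitaxel alone. SDHC had 88.6 and 85.8 CPM in the combination, against 109.6 and 110.3 CPM in paclitaxel alone (-0.33 ± 0.10, adjusted p = 0.082). Its 4 fold changes with ruxolitinib, in the 2 lines with and without paclitaxel, ran from -0.44 to -0.30.

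Genes that work with the members were examined as lists. In this and the next paragraph the counts in parental cells at 1 µM doxorubicin stand against 34.3% of all genes higher and 41.5% lower. At 1 µM doxorubicin in parental cells, 2 of 13 mitochondrially encoded subunits were higher and 0 lower, MT-ND1 by 0.98 and MT-ND5 by 0.94. Cytochrome c (CYCS), which carries electrons from complex III to complex IV, had 2143 and 2313 CPM with drug, against 794 and 709 CPM in DMSO (1.57 ± 0.09, adjusted p = 2.3e-13). ATPIF1, the inhibitor of ATP synthase hydrolysis, had 160.5 and 128 CPM, against 40.8 and 53.7 CPM (1.59 ± 0.11, adjusted p = 6.7e-12). Both were well above DMSO in each treated library, and 4 of the 5 genes of their list were higher and 0 lower.

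Of 39 other assembly factors, 18 were higher and 9 lower, led by COX19 (1.36) and UQCC1 (1.04) upward and NUBPL, an iron-sulfur carrier for complex I (-1.07), and COX18 (-0.81) downward. Mitochondrial ribosomal proteins were 27 higher and 27 lower of 75, with MRPL33 at 1.71 and MRPL24 at -1.73. The TCA cycle and pyruvate dehydrogenase genes were 6 higher and 8 lower of 17, with DLST at 0.76, SUCLG2 at -1.90 and DLAT at -1.43. Of 4 pyruvate dehydrogenase kinases 3 were lower, PDK1 at -2.00. Of 16 regulators, 3 were higher and 9 lower, with YY1 at 0.86 and GABPA, the DNA-binding part of GABP, at 0.61 among the first and the coactivator PPARGC1B at -1.49 and the mitochondrial RNA polymerase POLRMT at -1.30 among the second. Calls among mitochondrial ribosomal proteins and TCA enzymes went in both directions, as they did over all tested genes (34.3% higher and 41.5% lower). In DR cells at this dose, where 19.1% of all genes were higher and 19.9% lower, 0 of 13 mitochondrially encoded genes, 12 higher and 15 lower of 75 ribosomal proteins, 6 higher and 3 lower of 17 TCA genes and 2 higher and 5 lower of 16 regulators were called.

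Under 10 nM paclitaxel in parental cells the TCA list had 12 of 17 genes lower and 0 higher, where 28.1% of all genes were lower and 20.1% higher, with SUCLG2 at -0.74 and fumarate hydratase (FH) at -0.72. PPARGC1A, which encodes the coactivator PGC-1α, had 13.3 and 15.4 CPM, against 33.2 and 26.4 CPM in DMSO (-0.998 ± 0.12, adjusted p = 4.4e-07). It had 50.9 and 53.6 CPM under ruxolitinib alone, above the same DMSO libraries (0.80 ± 0.12, adjusted p = 4.9e-05). With ruxolitinib added to 2.5 nM paclitaxel it had 42.7 and 39.4 CPM, against 18.3 and 20.3 CPM in paclitaxel alone (1.05 ± 0.12, adjusted p = 2.3e-06). In PR cells it had 64.6 and 57.3 CPM under ruxolitinib, against 45.1 and 44.9 CPM in DMSO (0.43 ± 0.12, adjusted p = 0.028). PPARGC1A was thus higher with ruxolitinib in each of these 3 comparisons. Its values for ruxolitinib added to paclitaxel in PR cells are not given here. A link between the RNA levels of PPARGC1A and of the members was not tested.

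At baseline, HIF1A, the hypoxia-inducible factor known to induce NDUFA4L2, had 365 and 383 CPM in DR, against 972 and 772 CPM in parental cells (-1.21 ± 0.11, adjusted p = 1.9e-08). A link between the RNA levels of HIF1A and NDUFA4L2 was not tested. NDUFA4L2 was also lower in PR than in parental cells (-0.56), and HIF1A is not given there. Of the 17 TCA genes, 7 were higher and 1 lower in PR than in parental cells, with PDHA1 at 0.75 and FH at 0.60, and 17 of 75 mitochondrial ribosomal protein genes were lower and 2 higher, against 16.3% of all genes in each direction. In DR cells 1 TCA gene was higher and 1 lower, and 12 ribosomal protein genes were lower and 0 higher, against 12.3% of all genes higher and 15.2% lower.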

How the data were processed

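The authors deposited one table of log2(CPM + 1) values for all 30 libraries. The submitters' processing notes name GRCh37/hg19, the aligner STAR 2.5.1b and the package edgeR, without their roles; neither counting tool nor annotation is stated there. All values came out as whole reads within 0.01 once the scaling was undone, and 3 reads correspond to 0.0947 to 0.163 CPM, a floor that covers counting error only.

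Genes with at least 1 CPM in 2 libraries were kept (12743). The deposited log2 values (pseudocount 1 CPM) were fitted with limma 3.58.1 in R 4.3.3, with a mean for each of 15 groups, trended and robust variance moderation and 15 residual degrees of freedom, giving 15 comparisons of groups and 3 differences of responses. P-values are two-sided and adjusted by Benjamini-Hochberg within each comparison over all genes. The fit was checked on simulated data. Transcript length and GC content came from GENCODE release 29. Tables were handled with Python 3.11.15 and pandas 2.3.3.

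The members, gene lists and tests were chosen with earlier results of these data known. The text names, per comparison and direction, up to 4 called members with the largest change, at least 5 CPM in a group and no overlap (a condition not applied to differences), isoforms, core subunits, complex II, non-subunits and the extremes of level, and from each list the 2 largest called genes per direction. A gene that this rule picks is not reported here. Other names are marked as chosen after their values were seen. Other settings tried were 0.25 CPM as pseudocount, no filter, median-of-ratios scaling, a replicate block, a fit of only the lines compared, a GC and length correction, each library left out, and voom on the recovered reads, the last chosen after seeing the data.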

Additional observations from a re-analysis of the deposited data

Results flagged for a closer look

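The response to 1 µM doxorubicin differed between DR and parental cells in 46 of the 85 members by the test of the difference itself, which is 54.1% of members, against 58.3% of all tested genes. As DR minus parental log2 fold changes, the differences were -1.40 for NDUFB1, -1.29 for NDUFA7, -1.13 for COX8A and -1.10 for NDUFA2. In the other direction they were 1.36 for NDUFA4L2, 1.33 for ATP5D, 1.03 for ATP5C1 and 0.95 for NDUFS4. Each of these genes had the larger change in parental cells.

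At 10 nM paclitaxel the response differed between PR and parental cells in 5 members, ATP5A1 (0.50), NDUFA10 (0.49), UQCRFS1 (0.40), SDHA (0.39) and ATP5C1 (0.39), as PR minus parental log2 fold changes. That is 5.88% of members, all positive, against 6.87% of all tested genes called positive and 3.88% called negative. UQCRFS1 passed by the least, with an adjusted p of 0.049 by limma. With 2 libraries in each group, single libraries were not tested as outliers.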

How the results depend on the processing

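Among 68 named pairs of a member and a comparison, 796 alternative values were computed: 709 kept direction and side of the threshold, 87 kept direction and lost the call, and 0 reversed. Over all alternatives 40 pairs kept their call, and 57 did when fits without a library are set aside. Median-of-ratios scaling shifted the median of all genes by at most 0.08 (log2).

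The GC and length correction gave counts of called members of 26 for DR against parental DMSO (no filter gave 9), 33 for PR against parental, where higher calls then outnumbered lower, and 36 for DR against PR. It gave 3 at 65 nM and 4 at 350 nM doxorubicin, 27 at 1 µM in DR cells, 14 at 10 nM paclitaxel in PR cells, 8 for ruxolitinib in either line, mostly higher, 25 and 4 for ruxolitinib added to paclitaxel in parental and PR cells, and 21 for the difference at 10 nM paclitaxel. With only the lines compared, counts were 2 and 16 at 2.5 and 10 nM paclitaxel in parental cells, 10 at 10 nM in PR cells, 8 for ruxolitinib in PR cells (7 higher), 6 and 4 for its addition to paclitaxel, and 3 for the paclitaxel difference. Median-of-ratios scaling gave 2 for ruxolitinib in parental cells and 3 for the paclitaxel difference. The shares of all tested genes called under these settings are not given, so the changes need not be particular to the members. Their cause was not tested.

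Without each library in turn, counts ran from 7 to 14 for DR and from 7 to 13 for PR against parental (7 without replicate 2 of PR DMSO, 4 of them higher), and from 9 to 13 for DR against PR. They ran from 0 to 14 at 2.5 nM and from 18 to 24 at 10 nM paclitaxel in parental cells, from 0 to 3 at 65 nM doxorubicin, from 6 to 9 at 1 µM in DR cells, from 0 to 12 at 10 nM paclitaxel in PR cells, from 0 to 2 and from 0 to 1 for ruxolitinib in parental and PR cells, from 1 to 17 for its addition in parental cells, and from 1 to 18 for the paclitaxel difference. The median difference of the doxorubicin responses was -0.37 without replicate 2 of the treated parental group.

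Libraries with the same replicate number did not deviate together in every comparison (r from -0.69 to 0.50). With the replicate number as a block, 1 member was called at 10 nM paclitaxel in PR cells, where 0 were called without it, and 62 at 1 µM doxorubicin in parental cells, as without it.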
